A study of Homo sapiens with 1 sample.

Results

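The 5p arms of the human microRNAs (miRNAs) numbered miR-6715 to miR-6895 were examined on 1 microarray of DLD-1 cells, an established colorectal carcinoma line. Members were chosen by name alone, as every human probe target with a number in this range, an optional letter and the ending 5p. This gave 176 of the 2549 miRNAs on the array, from 174 of the 181 numbers in the range. The cells carried a negative control siRNA, named si-NC, which served as the control for depletion of circLONP2, a circular RNA from the LONP2 gene. Only this array was analysed here (n = 1), so there was no group to compare and no test, and every error is technical. All 9 miRNAs fixed as markers of colon epithelium were called detected, with miR-200b-3p at 9249 ± 657 (error from the scanner software), and 1 of 10 markers of other tissues was, miR-223-3p at 25.4 ± 1.97.

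A miRNA is cut from a hairpin precursor, whose left side gives the 5p arm and whose right side gives the 3p arm. Most miRNAs are released from long transcripts by Drosha and DGCR8 and then trimmed by Dicer. A mirtron takes another way, in which the hairpin is a short intron freed by splicing, so its right end is the 3′ splice site, which ends in AG. The 5p arms of human mirtrons are known to be rich in G and their 3p arms rich in pyrimidines.

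The hairpins of the members carried these marks in the RefSeq sequences (GRCh38.p14). Of 160 member hairpins with a sequence, 146 (91.3%) ended in the letters AG on the RNA strand, while 8.36% of the other 1400 human hairpins did. The end letters say nothing of how each hairpin is released, which was not measured. The hairpins of the 3 brightest members for which a sequence was given are shown because their ends carry this mark, with the 5p arm and the last 2 bases in capitals.
MIR6826: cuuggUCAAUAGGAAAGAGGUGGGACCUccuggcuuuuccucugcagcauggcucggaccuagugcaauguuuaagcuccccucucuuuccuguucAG
MIR6780B: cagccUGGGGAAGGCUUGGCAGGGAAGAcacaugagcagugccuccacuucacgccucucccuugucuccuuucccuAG
MIR6740: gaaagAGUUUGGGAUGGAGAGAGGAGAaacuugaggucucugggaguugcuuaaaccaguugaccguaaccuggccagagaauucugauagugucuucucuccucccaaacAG

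These hairpins lie at chr3:129272146-129272243, chr6:43434542-43434620 and chr1:202003124-202003236, all on the plus strand, and run 5′ to 3′. They fall inside COPG1, which encodes a coat protein of Golgi vesicles, ABCC10, a membrane transporter, and RNPEP, an aminopeptidase. Of the 160 member hairpins, 129 (80.6%) lay within the span of a protein-coding gene on the same strand, and 616 of the other 1400 did (44.0%). Whether a hairpin lay in an intron or an exon was not resolved, since the gene table holds only starts and ends.

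The mature 5p arms were G-rich. A sequence was found for 150 of the 176 members, which had a median length of 22 bases and a median of 50% G, against 27.3% for 613 other 5p arms and 14.6% for 154 of the 3p arms of the same number range. The letters GGG, read on the RNA strand only, occurred in 125 of the 150 members (83.3%) and in 32.8% of the other 5p arms. Within the seed, bases 2 to 8 that pair with targets, GGG occurred in 97 members (64.7%) and in 15.5% of the other 5p arms.

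The mature sequences of the brightest members with a known sequence are given first, with the seed in capitals. Those of miR-6875-5p and miR-6879-5p are named only.
miR-6826-5p: uCAAUAGGaaagaggugggaccu
miR-6780b-5p: uGGGGAAGgcuuggcagggaaga
miR-6740-5p: aGUUUGGGauggagagaggaga
miR-6717-5p: aGGCGAUGuggggauguagaga
miR-6749-5p: uCGGGCCUgggguugggggagc
miR-6858-5p: gUGAGGAGgggcuggcagggac
miR-6807-5p: gUGAGCCAguggaauggagagg
miR-6734-5p: uUGAGGGGagaaugagguggaga

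In this order they lie at chr3:129272151-129272173, chr6:43434547-43434569, chr1:202003129-202003150, chr14:21023355-21023376, chr11:64902429-64902450, chrX:154450320-154450341, chr19:58550285-58550306 and chr1:43364688-43364710 (GRCh38.p14). Those of miR-6717-5p, miR-6749-5p and miR-6734-5p are on the minus strand and the others on the plus strand. All 8 had different seeds. The first of them, at 34.8% G, held less G than the median member. MiR-6749-5p and miR-6858-5p, each at 59.1% G, held more, as did miR-6780b-5p and miR-6734-5p, each at 52.2% G.

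Seeds were rarely shared within the range. The 150 sequences carried 139 different seeds, and 21 members shared theirs with another member. The largest group had 3 members, which are shown with 2 of the 9 groups of 2 members, the first by seed letters, because their detection can be read side by side.
miR-6737-5p: uUGGGGUGgucggcccuggag
miR-6812-5p: aUGGGGUGagauggggaggagcagc
miR-6819-5p: uUGGGGUGgagggccaaggagc
miR-6758-5p: uAGAGAGGggaaggaugugaugu
miR-6856-5p: aAGAGAGGagcaguggugcugugg
miR-6750-5p: cAGGGAACagcugggugagcugcu
miR-6822-5p: cAGGGAACcaguuggggcuu

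These 7 lie at chr1:153962395-153962415, chr20:45425515-45425539, chr22:36286881-36286902, chr12:57512693-57512715, chr9:130626302-130626325, chr11:64898409-64898432 and chr3:39138211-39138230. The arms of miR-6737-5p, miR-6819-5p and miR-6750-5p are on the minus strand and the other 4 on the plus strand.

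Detection was read first. The scanner software calls a miRNA detected when at least 1 of its probes gives a signal above 3 times its error. By this flag 97 of the 176 members were detected, or 55.1%, where 44.4% of all 2549 miRNAs on the array were. The share was 45.1% of the 173 3p arms of the same range and 47.5% of 684 other 5p arms. The members thus had the higher share, a difference described here without a test. Stricter rules gave lower counts. Where 1 probe needed 50% or more of its spots well above background, 85 of 176 members passed. Of all 2549 miRNAs, 965 did (37.9%). With the median spot over the 99th percentile of negative control spots, 72 of 176 members passed, beside 790 of all 2549 miRNAs (31.0%). With every probe held to the 50% limit, 71 members passed, beside 748 of all miRNAs (29.3%). With a total gene signal of 5 or more, 74 members passed, beside 849 of all miRNAs (33.3%). Each member had 20 spots on the array, from 2 probes for 164 members and 3 for the other 12. Of all member spots, 44.9% were well above background, against 34.3% of all miRNA spots, and no member spot was saturated. All 20 spots were well above background for 63 of the 97 detected members. Of the 79 undetected members, 62 had 0 such spots and none had more than 2.

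The line between detected and undetected was thin. The 3 detected members with the lowest ratio of their best probe signal to its error were miR-6823-5p at 3.04, miR-6890-5p at 3.06 and miR-6746-5p at 3.5. The 3 undetected members with the highest ratio were miR-6790-5p at 2.97, miR-6774-5p at 2.84 and miR-6765-5p at 2.82. Spots well above background numbered 1 for miR-6823-5p and miR-6890-5p, 4 for miR-6746-5p and 0 for each of the 3 undetected ones.

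The 5 lowest detected signals came from few spots. They were 2.23 ± 0.527 for miR-6737-5p, 2.02 ± 0.520 for miR-6806-5p, 1.85 ± 0.514 for miR-6721-5p, 1.54 ± 0.503 for miR-6890-5p and 0.929 ± 0.306 for miR-6823-5p. Of their 20 spots, 2, 3, 2, 1 and 1 were well above background. The best probe of miR-6823-5p had spots from 1.36 to 16.9, around a mean of 8.46 ± 5.13 (SD, 6 spots).

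The signals of the detected members were mostly low. The total gene signal, which the software builds from the mean spot signal and the number of spots of each probe, had a median of 10.5 with quartiles of 5.26 and 34.5. Over all 1133 detected miRNAs the median was 12.5, and over the 325 other detected 5p arms it was 17.4 with an upper quartile of 103. The lower quartiles lay close together, at 5.26 for the members and 4.86 for the other 5p arms, and the sets parted at the bright end. A signal of 100 or more was reached by 11 members, or 11.3% of those detected, against 25.5% of the other detected 5p arms. A signal of 1000 or more was reached by 1 member, or 1.03% of those detected, against 28 of the other detected 5p arms (8.62%) and 5.38% of all detected miRNAs. The error was 7.09% of the signal in the median for members at 100 or more and 18.8% for the 23 members under 5.

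**Figure D1:**
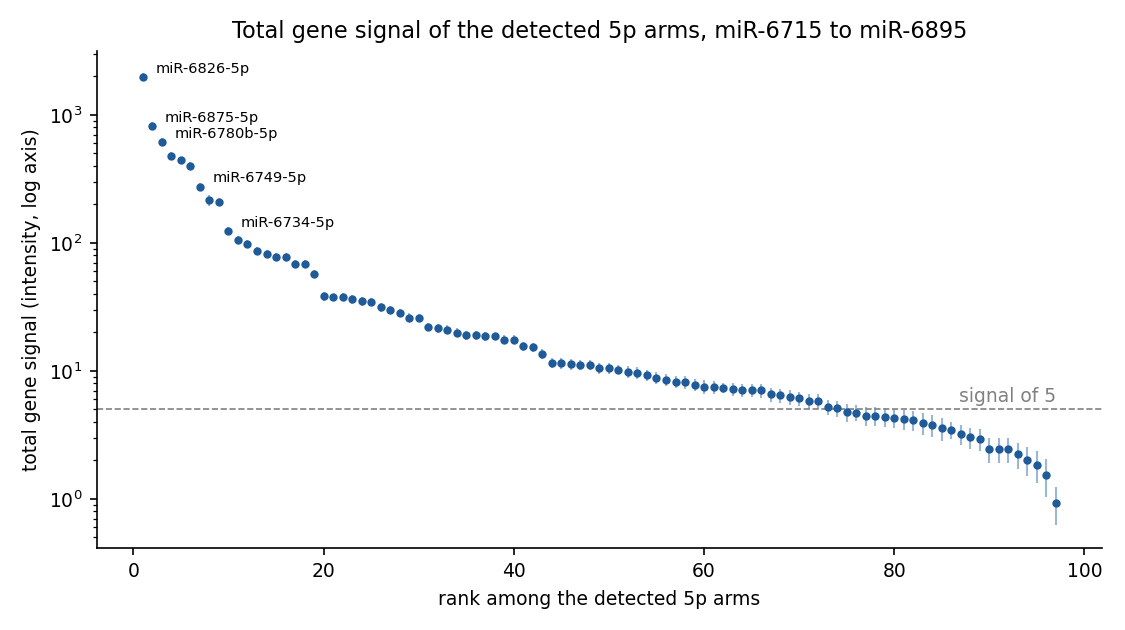
Total gene signal (intensity, log axis) of the 97 detected 5p arms of miR-6715 to miR-6895 by rank on the 1 si-NC array, with error bars from the scanner software. The signals ran from 1968 down to 0.929, and 23 members lay under the dashed line at a signal of 5.

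A few members held most of the summed signal. The 10 highest made up 77.0% of the sum over detected members, and miR-6826-5p alone 27.3%. Signals of different miRNAs come from different probes, so their order is an order of signals and not of abundance. The total gene signal of miR-6826-5p was 1968 ± 139. Its probes had mean spot signals of 5322 ± 175 (SD, 10 spots) and 5439.7 ± 107 (SD, 10 spots), and the ranges of their spots, 4977 to 5501 and 5241 to 5591, overlapped. The next was miR-6875-5p at 816.5 ± 57.8, with spots from 1954 to 2314 on one probe and from 2224 to 2426 on the other. The third was miR-6780b-5p at 616 ± 45.2, whose probes did not overlap, with spots from 2012 to 2295 on one and from 1132 to 1305 on the other.

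The following 3 lay close together. The signal of miR-6740-5p was 475 ± 33.6, that of miR-6717-5p was 444 ± 25.8 and that of miR-6879-5p was 402 ± 28.5. The error ranges of neighbours among these 3 overlapped. MiR-6717-5p lies within NDRG2, a gene of the N-myc downstream-regulated family, and miR-6879-5p within ARL2, which encodes a small GTPase. The 3 probes of miR-6717-5p had mean spot signals of 1209 ± 44.0 (SD, 7 spots), 1186 ± 112 (SD, 7 spots) and 1255 ± 99.4 (SD, 6 spots), which lay within their spread of each other. Then came miR-6749-5p at 275 ± 19.5, in ATG2A, a gene of autophagy, miR-6858-5p at 214 ± 21.5, miR-6807-5p at 209 ± 14.8 and miR-6734-5p at 124 ± 8.84, in ELOVL1, which encodes a fatty acid elongase. In 9 of these 10 members every spot was well above background, and miR-6858-5p had 18 of 20.

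**Figure D2:**
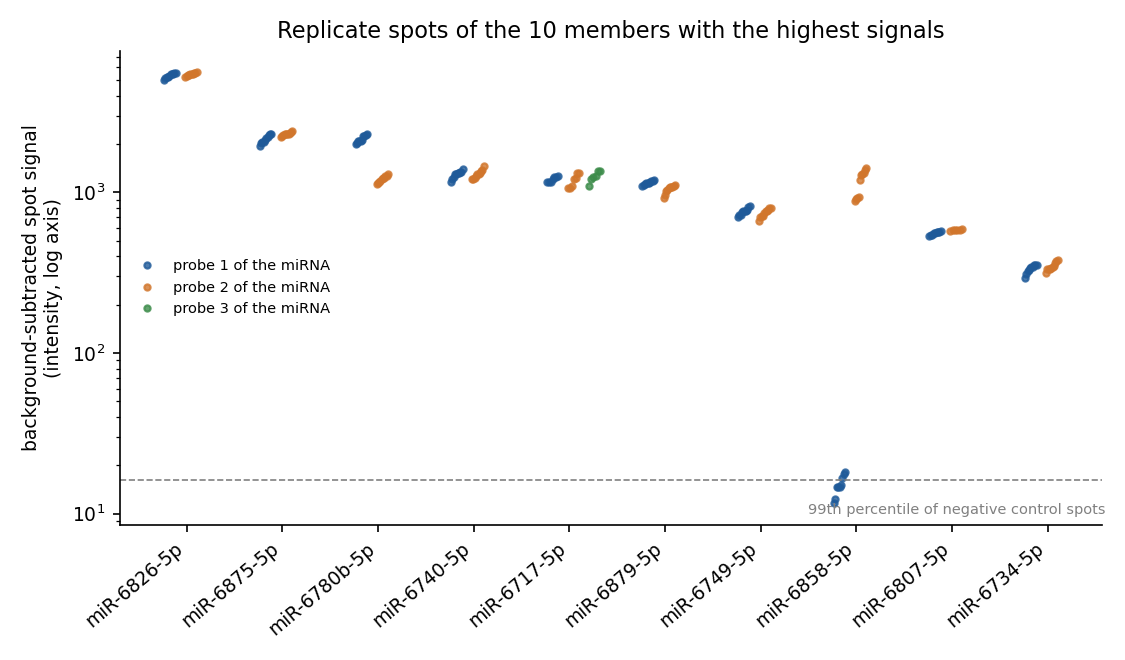
Background-subtracted spot signal (intensity, log axis) of each replicate spot, outlier spots left out, for the 10 members with the highest total gene signals, with colours for the probes of a miRNA. The spots of 1 probe of miR-6858-5p lay between 11.6 and 18.1, around the 99th percentile of negative control spots at 16.1 (dashed), while those of the other lay between 881 and 1416.

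The probe gap, the log2 difference between the brightest and the dimmest probe of a miRNA, was taken for detected miRNAs with at least 2 probes of which 50% or more of the spots were well above background. It could be taken for 72 of the 97 detected members. Another 13 had 1 such probe and 12 had none. In these 13 the probe means were close in some, as 11.7 and 11.2 for miR-6832-5p. In others they were far apart, as 28.8 and 0.82 for miR-6779-5p and 25.7 and 3.88 for miR-6801-5p. Such members do not enter the gaps below. The median gap was 0.17, with quartiles of 0.08 and 0.36, against 0.35 over all 800 miRNAs measured this way and 0.41 over the other 5p arms. A gap of 1 or more was found in 2 of 72 members (2.78%) and in 155 of the 728 miRNAs that are not members (21.3%). Among miRNAs with exactly 2 such probes the median was 0.16 for 67 members and 0.34 for 615 others. A gap of 1 or more was found in 2 of these members (2.99%) and in 99 of these others (16.1%). The miRNAs with exactly 2 such probes were then split by the mean spot signal of the dimmer probe. Under 20 the medians were 0.21 for 15 members and 0.31 for 115 others. At 20 to under 100 the medians were 0.18 for 34 members and 0.37 for 258 others, and at 100 or more they were 0.10 for 18 members and 0.31 for 242 others. Over all miRNAs with 2 or more such probes, the gap exceeded 3 of its standard errors in 35 of 72 members (48.6%). It did so in 67.4% of the 728 others, a share not matched for the number of probes.

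Among the 72 members with a gap, the exception was miR-6858-5p. Its dimmer probe had a mean spot signal of 15.1 ± 2.19 (SD, 9 spots) and its brighter one 1156 ± 217 (SD, 10 spots), a gap of 6.26 ± 0.11 (SE from replicate spots). The dimmer mean was below the 16.1 that marks the top 1% of negative control spots, so this gap depends on a signal near background. The brighter probe also had uneven spots, from 881 to 1416 with a median of 1239.7. It gave 211 of the total gene signal and the dimmer probe 2.75. Within this set of 72 the second gap was far smaller, 1.19 ± 0.03 for miR-6726-5p. Its spots ran from 41.2 to 46.7 on one probe and from 92.5 to 108 on the other. It was followed by miR-6845-5p at 0.91 ± 0.10, miR-6803-5p at 0.83 ± 0.05 and miR-6780b-5p at 0.83 ± 0.03, whose error ranges overlapped. The smallest gaps were 0.0047 ± 0.069 for miR-6794-5p, 0.0076 ± 0.101 for miR-6849-5p and 0.0100 ± 0.037 for miR-6740-5p. The dimmer probe of miR-6845-5p, at 15.6, and both probes of miR-6849-5p, at 16.0 and 15.9, were also under 16.1, so these gaps too depend on signals near background. The dimmer probe was under this level in 8 of the 72 members.

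**Figure D3:**
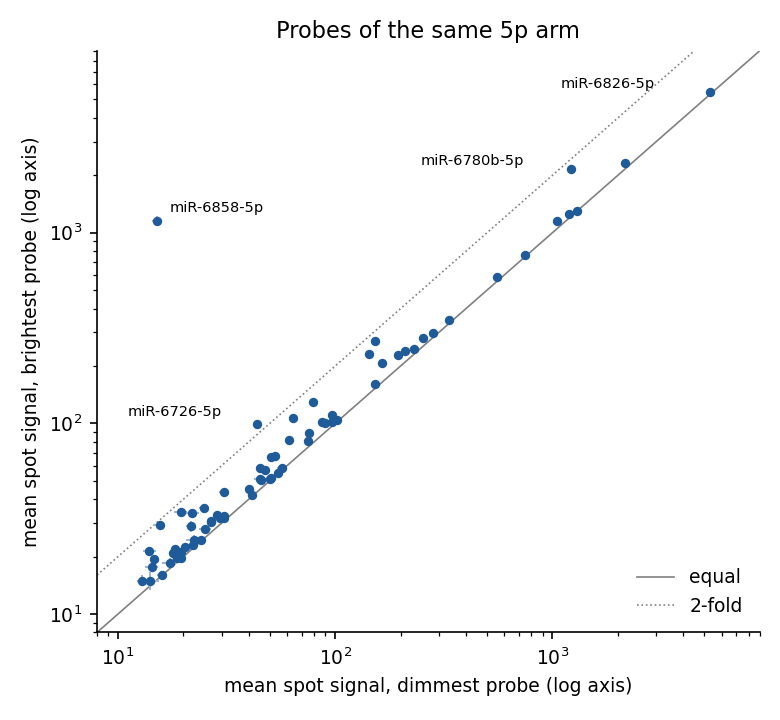
Mean spot signal of the brightest against the dimmest probe (both intensity, log axes) for the 72 members with 2 or more probes well above background, with standard errors over replicate spots. Of these, 70 lay between the line of equality and the dotted 2-fold line, and miR-6858-5p stood far above it at 1156 against 15.1.

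Replicate spots were compared next. The coefficient of variation (CV) over the spots of a probe had a median of 9.35% over 162 member probes, between quartiles of 6.72% and 14.1%, of 6.38% over 562 probes of other 5p arms and of 8.57% over all 1778 other probes, which include the 3p arms of the range at 21.5%. For probes at a mean under 20 the medians were 17.6% for 33 member probes and 15.7% for 313 others. At 20 to under 100 the members were slightly lower, at 9.62% for 82 probes and 10.3% for 769 others. At 100 or more the medians were 5.88% for 47 member probes and 4.85% for 696 others. The 3p arms of the same range stood apart from both, with 24.4% over 29 probes at that brightness.

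Base content moved with detection. The median G share was 50% in 80 detected members with a sequence and 43.5% in 70 undetected ones, and the median C share was 13.0% and 17.4%. The share detected was 34.5% of 29 members with 30 to under 40% G, 40.5% of 37 at 40 to under 50%, 64.1% of 64 at 50 to under 60% and 83.3% of 12 at 60% or more. Only 8 members had less than 30% G, and 4 of them were detected. With a total gene signal of 5 or more asked for, the 4 shares from 30% G upward were 17.2%, 29.7%, 51.6% and 75%, against 30.2%, 40%, 57.4% and 74.4% of the other miRNAs. By the flag, the share in all other miRNAs rose over all 5 bins, with 38.2% detected of 1287 under 30% G, and 42.0%, 54.3%, 70.4% and 90.7% in the next 4 bins. In each bin from 30% G upward the members thus had a lower share detected by the flag than the other miRNAs of like G content, although over all bins their share was higher. At a signal of 5 or more this did not hold for the bin of 60% or more. By the flag, 50 of 97 members with GGG in the seed were detected (51.5%) and 30 of 53 without it (56.6%). For GGG anywhere in the arm these were 69 of 125 (55.2%) and 11 of 25 (44%). In the other miRNAs the share was higher with GGG both times, at 53.6% against 42.0% for the seed and 57.1% against 37.9% for anywhere. Across the 80 detected members, Spearman's rho between G share and total gene signal was 0.20, over miRNAs that share 1 array, and over 912 other detected miRNAs it was 0.0025.

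**Figure D4:**
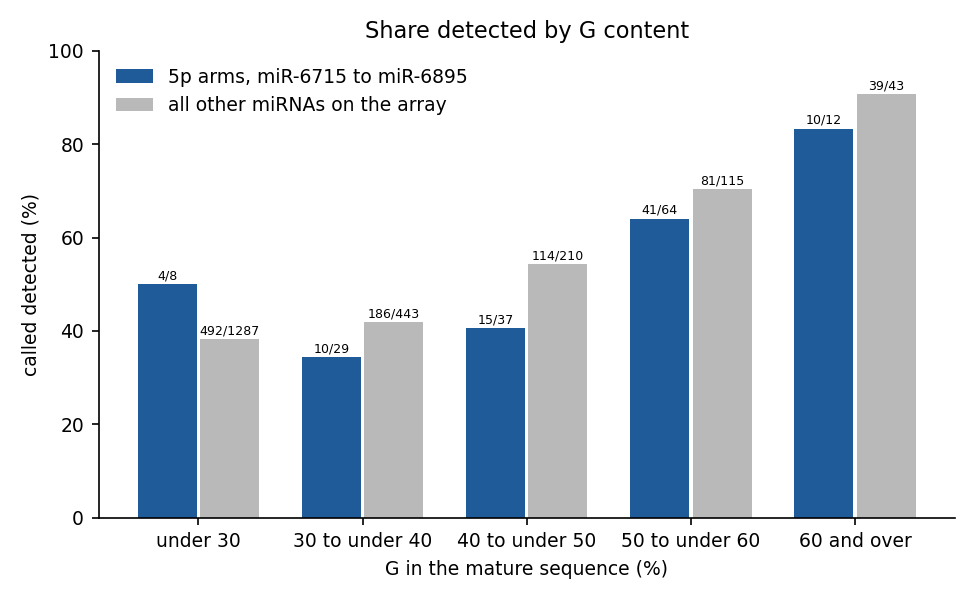
Share called detected (%) by the G content of the mature sequence (%), for 150 members (blue) and 2098 other miRNAs with a sequence (grey), with detected over all counts above the bars. In the members the share rose from 34.5% at 30 to under 40% G to 83.3% at 60% or more, while the bin under 30% held 4 of 8. In the other miRNAs it rose over all bins.

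The ends of this range are shown with their sequences, the seed in capitals, the 3 highest in G first and then 3 of the lowest. The last of them, miR-6733-5p, is 1 of 5 members tied at 27.3% G.
miR-6803-5p: cUGGGGGUggggggcugggcgu
miR-6752-5p: gGGGGGUGuggagccagggggc
miR-6786-5p: gCGGUGGGgccggaggggcgu
miR-6722-5p: aGGCGCACccgaccacaugc
miR-6840-5p: aCCCCCGGgcaaagaccugcagau
miR-6733-5p: uGGGAAAGacaaacucagaguu

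These lie at chr19:55245224-55245245 on the minus strand, chr11:67490250-67490271 and chr17:81693809-81693829 on the plus strand, chr9:136746941-136746960 on the minus strand, chr7:100356656-100356679 on the plus strand and chr1:43171686-43171707 on the minus strand.

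At 68.2% G, miR-6803-5p gave 77.7 ± 5.76 with 20 of 20 spots well above background, and miR-6752-5p gave 7.52 ± 0.898 with 11 of 20. MiR-6786-5p, at 66.7% G, was undetected with 0 of 20. Of those low in G, miR-6722-5p at 25% G gave 6.09 ± 0.813 with 14 of 20 spots, while miR-6840-5p, also at 25% G, was undetected. Of the 5 members at 27.3% G, 3 were detected with 20 of 20 spots each, miR-6868-5p at 8.54 ± 0.916, miR-6838-5p at 7.82 ± 0.876 and miR-6839-5p at 7.10 ± 0.843, and miR-6733-5p and miR-6755-5p were undetected. Detected and undetected members were thus found at both ends.

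Of the 10 shared seeds, 4 had every member detected, 2 had none and 4 had some. These are counts of groups, while 55.1% of all single members were detected. A link between seed and detection was not tested. Of the 3 with the seed UGGGGUG, miR-6812-5p gave 11.2 ± 1.04 with 20 of 20 spots well above background, miR-6819-5p gave 4.30 ± 0.742 with 6 and miR-6737-5p gave 2.23 ± 0.527 with 2. MiR-6856-5p gave 68.1 ± 4.91 with 20 spots and miR-6758-5p, with the same seed, 5.09 ± 0.768 with 11. Both members of the third group, miR-6750-5p and miR-6822-5p, were undetected with 0 of 20 spots each. Among members with a letter in the name, miR-6780b-5p stood at 616 ± 45.2 and miR-6780a-5p, in EZH1, a histone methyltransferase gene, at 68.7 ± 5.04. Their sequences differ by 9 edits. MiR-6769b-5p gave 17.6 ± 1.42, and miR-6769a-5p and miR-6715b-5p were undetected.

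Near-identical sequences could share a probe signal, so each member was compared with every other miRNA on the array that had a sequence. No member had a neighbour closer than 5 edits, and 14 of 150 had one at 5 edits. Of these 14, 12 were detected, beside 80 of the 150 members with a sequence. In 10 of the 12 the neighbour was detected too, beside 44.4% of all miRNAs on the array. Both miR-6737-5p and miR-6819-5p enter this count, each as the neighbour of the other. Another member with a neighbour at 5 edits was miR-6763-5p at 57.0 ± 4.09. Its neighbour was miR-6127, whose signal was 2263 ± 160. The shares set beside these counts, 80 of 150 and 44.4%, were not matched for G content. In miRNAs outside the members, 70.4% were detected at 50 to under 60% G and 90.7% at 60% or more. Binding of such neighbours to member probes was not tested.

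Of 5 host genes with several members, 3 had some members detected and 2 had none. In none of the 5 were all members detected. The 55.1% detected of all 176 members is a share of single members, so it cannot be set against this count of genes. With so few genes, a link between host gene and detection was not tested. In ATG2A, miR-6749-5p gave 275 ± 19.5 with 20 of 20 spots well above background and miR-6750-5p was undetected with 0. In PPP6R1, which encodes a regulatory subunit of protein phosphatase 6, miR-6803-5p gave 77.7 ± 5.76, miR-6804-5p 6.22 ± 0.810 and miR-6802-5p was undetected. In KDM5C, a histone demethylase gene, miR-6894-5p gave 3.92 ± 0.735 and miR-6895-5p was undetected. Neither member in CAMTA2 nor either in GTF2F1 was detected. The gene groups were formed after the signals had been seen. Of 171 members with a single locus, 22 lay on chromosome 19, of which 14 were detected, 20 on chromosome 1 with 11 detected and 19 on chromosome 17 with 10 detected. The 4 members with several loci were miR-6724-5p, at 13.6 ± 1.19, and miR-6770-5p, miR-6859-5p and miR-6862-5p, which were undetected. Detection was 54.3% for 140 members whose hairpins end in AG and 53.8% for 13 whose hairpins do not.

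The 3p arms from the same hairpins were then set beside the members, for detection only. Both arms were on the array for 170 hairpins of the range. Both were detected in 47, only the 5p arm in 46, only the 3p arm in 31 and no arm in 46. The 3p arm was detected in 50.5% of the 93 hairpins with a detected 5p arm and in 40.3% of the 77 without, a difference of 10.3 percentage points. For 640 other hairpins with both arms these shares were 61.3% and 26.9%, 34.3 points apart. The sign of the difference in the range depended on the rule. Under the rule that the median spot exceed the 99th percentile of negative control spots, it turned to -5.07 points. Under the rule that every probe reach the 50% limit it was -7.84. For the others it stayed at 26.9 and 17.8. With the 50% limit asked of 1 probe it was 12.2 points in the range, and with a signal of 5 or more 3.90. For the others these were 32.6 and 28.1. Of the 10 brightest members, 9 had a 3p arm on the array, and 2 of these were detected, miR-6740-3p at 16.4 ± 1.72 and miR-6858-3p at 41.5 ± 3.12.

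**Figure D5:**
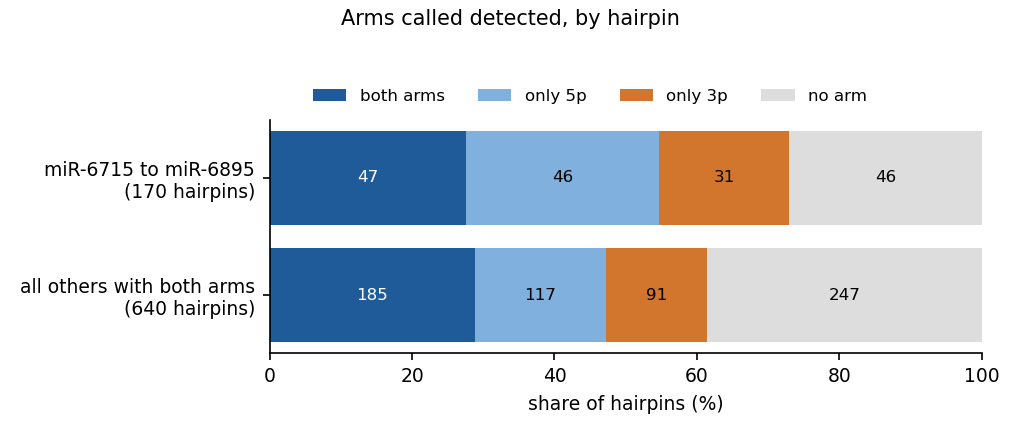
Share of hairpins (%) by which arms were called detected, for 170 hairpins of miR-6715 to miR-6895 and 640 other hairpins with both arms on the array, with counts in the bars. Only the 5p arm was detected in 46 of 170 hairpins of the range (27.1%) and in 117 of 640 others (18.3%).

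Among the entries that the study lists as lower in circLONP2-depleted cells, 6 fall in this range, and no arm is given for them. The 5p arm was detected for 4 of them, beside 55.1% of all members. Its signal was 38.2 ± 2.87 for miR-6891-5p, in HLA-B, an antigen-presenting gene, 7.10 ± 0.845 for miR-6847-5p, 5.86 ± 0.798 for miR-6778-5p, in SHMT1, an enzyme of folate metabolism, and 3.20 ± 0.577 for miR-6873-5p. MiR-6716-5p and miR-6751-5p were undetected, with 1 and 0 of 20 spots well above background. The 3p arm was detected for all 6, beside 45.1% of all 3p arms of the range, at 26.3 ± 2.0 for miR-6716-3p and 12.3 ± 1.11 for miR-6751-3p. The study drew its list by comparing circLONP2-depleted DLD-1 cells with negative control cells. It first kept only miRNAs flagged as detected in a minimum number of samples. Detection of the entries was thus partly set by how the list was made. These values describe the entries and are not independent evidence.

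The authors' processed values followed the scanner signals. Over the 97 detected members the median deposited log2 value was 3.48, from a floor of 2.32 that all 79 undetected members shared up to 10.7 for miR-6826-5p. For members at a signal of 5 or more the deposited value exceeded the log2 signal by a median of 0.06. The 23 detected members under 5 all had 1 value, 2.3236, so the deposited table keeps no order among them.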

How the data were processed

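One si-NC array of DLD-1 cells was analysed. Feature Extraction 11.0.1.1 read the spots, per the file headers, and the authors deposited background-subtracted intensity, flags, and total signals with errors, not normalized between arrays. The authors also deposited log2 values, quantile normalized in GeneSpring, whose floor was read from the values. Labels name Cyanine 3-pCp labelling of RNA, while the study's methods name labelling of cDNA. Which one was applied is not settled here.

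Detection was the flag of the software. Adding up the probes whose signal exceeded 3 errors gave the total gene signal of all 97 detected members to within 0.1%. Undetected miRNAs hold a placeholder of 0.1. Means, SDs and CVs were taken over replicate spots without outlier spots (4.91% of member spots). A probe entered CV and gap where 50% or more of its spots were well above background. Sequences, strands and gene spans came from RefSeq (GRCh38.p14), on which 175 of 176 members matched a gene symbol. The array design names hg19, and no coordinates were converted. Normexp came from limma 3.58.1 in R 4.3.3, on the median spot signal with offset 50. Other steps ran in Python 3.11.15 (scipy 1.17.1, pandas 2.3.3, numpy 2.4.6), and matplotlib 3.10.9 drew the figures. The spot and probe calculations were checked on simulated data.

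Members and lists were chosen with earlier results of these data known. The naming rule took the 10 highest and 5 lowest signals, 3 members on each side of the detection limit, the 5 largest and 3 smallest gaps, 5p arms of study list entries, the 3 largest seed groups and the 3 highest and 3 lowest in G (ties in order of seed letters or name), and names with a letter. Names on the study's list were used, and none of its values. Alternatives were 5 other detection rules, normexp, outlier spots kept, other filters on dim probes, brighter members only, and deposited values. Counts were taken as unchanged within 1.5 times, and medians within a 95% interval from binomial order statistics. The single array limits the precision. Columns of samples left out numbered 0.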

Additional observations from a re-analysis of the deposited data

How the results depend on the processing

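Over 8 results, 31 alternative values were computed, of which 20 stayed within their limits and 11 moved. The 97 detected members became 85 when 1 probe needed 50% of its spots well above background, 72 against negative control spots, 71 when every probe had to pass and 74 at a signal of 5 or more. Reading detection from the deposited floor left 97. Hairpins with both arms detected fell from 47 to 17 with the rule on negative control spots, 16 with every probe and 25 with a signal of 5 or more. The difference in median G share between detected and undetected members, 6.52 percentage points, was 4.55 under each of these 3 rules and under the rule on spots of 1 probe. The median signal, 10.5, moved to 18.6 over the 74 members at 5 or more, since dim members were removed. The median CV, 9.35%, moved to 4.4% with normexp, where an offset of 50 raises every signal, and to 17.5% once dim probes were kept. The median gap, 0.167, moved to 0.0698 with normexp, under which the gap of miR-6858-5p was 4.07, against 5.86 with outlier spots kept. With all spots asked to be well above background this gap could not be taken. For the other moves, the cause was not tested. The dimmest members are limited by their signal over background, since those under 5 had between 1 and 10 of 20 spots well above background. No paired analysis was possible because there was 1 array.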
